A study of Mus musculus with 8 samples.

Results

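The 39 genes described here encode the enzymes that build, sulfate and edit heparan sulfate and chondroitin/dermatan sulfate, the sulfated glycosaminoglycans, and were taken by symbol from a count table of 55414 mouse genes. All 39 had a row of their own and all 39 passed the filter on low counts, among 15150 genes tested. The cells were cardiac fibroblasts cultured from mouse hearts, labelled C57BL/6J and wild type, although the protocol names animals with a floxed Has2 gene. At passage 2 they were starved of serum for 24 h and then received an adenovirus for GFP (the control, 4 cultures) or for Has2 (4 cultures) for 5 h. All 8 cultures were afterwards given medium with bFGF and TGFb at 20 ng/mL for 48 h, according to the protocol. Ages are not given. In each group replicates 1 and 2 are labelled female and replicates 3 and 4 male, and libraries of the same number carry the same preparation identifier. Each number was therefore treated as a pair, and because the identifiers of female and male cultures begin with different letters, an effect of sex and one of the preparation cannot be told apart. Whether separate animals gave the pairs is not stated; the p values then cover only the variation among these samples, which may be technical.

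Sulfated glycosaminoglycans are long sugar chains carried on proteoglycan core proteins. Synthesis starts in the Golgi with a short linker of xylose, galactose and glucuronic acid, after which one set of polymerases makes heparan sulfate and another makes chondroitin sulfate. Sulfotransferases and epimerases then modify the chains with sulfate from the donor PAPS; epimerised chondroitin sulfate is called dermatan sulfate, the form on decorin and biglycan of fibroblasts. Hyaluronan, the product of Has2, is an unsulfated glycosaminoglycan that is made at the plasma membrane without a core protein and uses UDP-glucuronic acid, as these chains do.

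Libraries held 46981231 to 55795187 counts, and the 39 genes together took 0.394% to 0.446% of a library. The transgene was present as labelled: Has2 was at 25.2, 7.36, 18.3 and 21.2 CPM (the usual depth-normalised count, by effective library size) in GFP replicates 1 to 4 and at 9527, 8400.3, 3207 and 4857 CPM in Has2 replicates 1 to 4. Fibroblast markers were abundant, with summed levels of 18938 to 30802 CPM over 6 genes with the GFP virus and 18365 to 32491 CPM with the Has2 virus. All 10 macrophage markers were also detected, with sums of 901 to 2139 CPM and 842 to 2330.4 CPM. Of 8 cardiomyocyte markers 1, Tnnt2, reached a mean of 1 CPM, and Pln had no count in any library. In these bulk cultures fewer cells of a type and less RNA per cell cannot be told apart.

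Levels were first compared per kilobase of the longest annotated transcript, for a rough comparison between genes. Which isoforms were expressed was not examined, and these levels were not corrected for GC content. The endosulfatase Sulf1, which removes 6-O-sulfate from heparan sulfate outside the cell, was highest at 180 CPM per kb (mean of 8 libraries), and its paralogue Sulf2 stood at 53.6 CPM per kb. Among chondroitin chain genes Chpf, a cofactor of polymerisation, reached 128 CPM per kb, against 34.1 for Chpf2, 19.3 for the synthase Chsy1 and 0.896 for its paralogue Chsy3. The heparan sulfate copolymerase subunits Ext1 and Ext2 stood at 31.1 and 58.8 CPM per kb. Linker genes ran from 1.41 (Xylt1) to 28.8 (B3gat3) CPM per kb, and of the chain initiators Xylt2 (16.3) was well above Xylt1. The 4-O-sulfotransferases Chst12, Chst14 and Chst11 stood at 47.2, 36.0 and 25.0 CPM per kb, whereas the 6-O-sulfotransferase Chst3 had 7 to 48 counts per library and 0.0826 CPM per kb. The 3-O-sulfotransferases Hs3st3a1 and Hs3st3b1, close relatives between which reads could be divided, were also low (0.417 and 0.168 CPM per kb), while Hs3st1 was at 19.3. Dermatan epimerase Dse stood at 25.1 CPM per kb and its paralogue Dsel at 4.02.

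**Figure D1:**
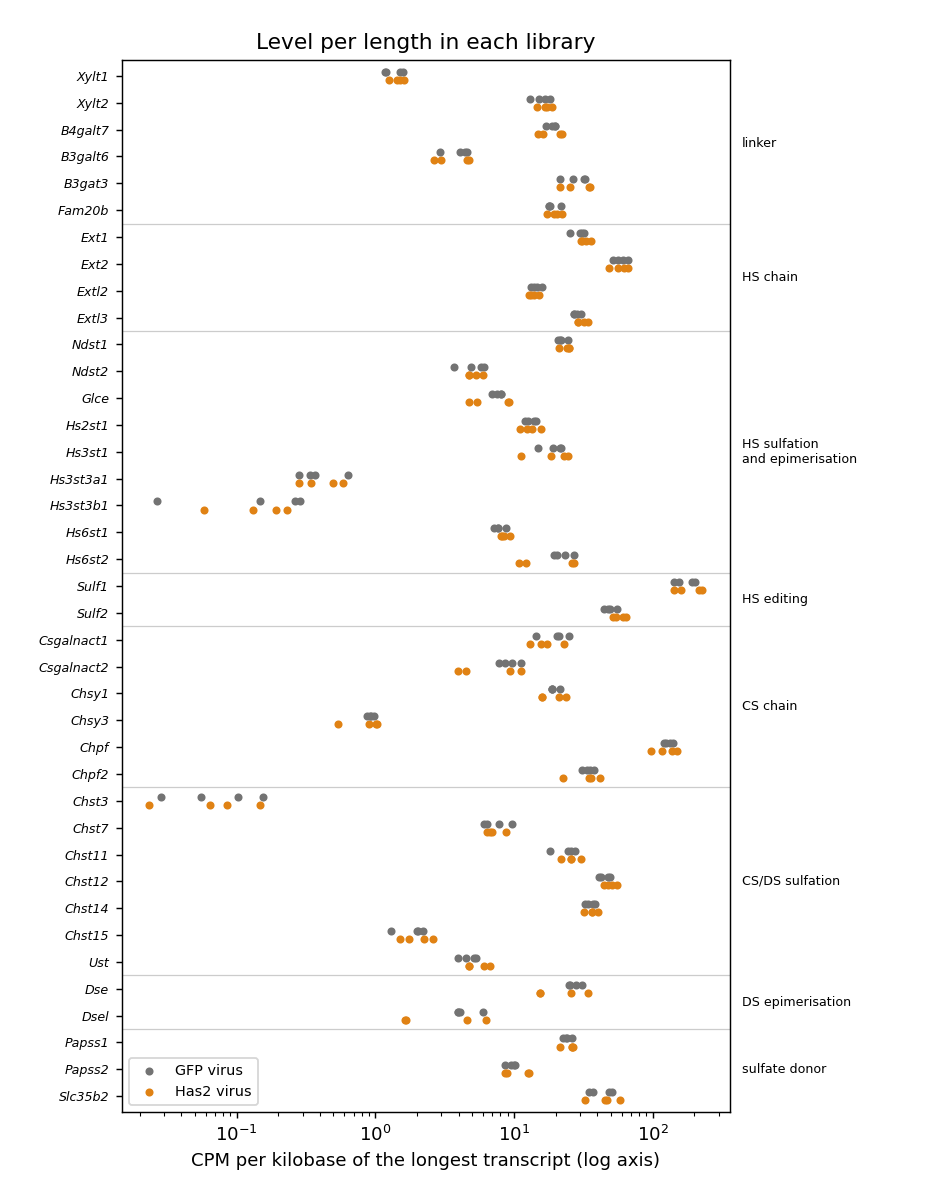
Level of each enzyme gene in the 8 libraries, as CPM per kilobase of the longest annotated transcript on a log axis, grouped by enzyme step; each point is a library (grey, GFP virus; orange, Has2 virus). Sulf1 and Chpf stand highest and Chst3 and Hs3st3b1 lowest, and the points of both viruses overlap for every gene.

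Over all 4 pairs 0 of the 39 enzyme genes passed the test for the Has2 virus (edgeR quasi-likelihood test with the replicate block, called at an adjusted p under 0.05), where 0.00660% of the genes tested, Has2 alone, passed. Their log2 fold changes ran from -0.56 (Dsel) to 0.22 (Sulf2), with a median of 0.04 against -0.02 over all genes tested; 20 were positive and 19 negative. Standard errors ran from 0.09 to 0.29. At an unadjusted p under 0.05 there was 1 member, Sulf2, on the higher side, or 2.56% of members against 2.57% of all genes. No member was on the lower side, where 744 of the 15150 genes tested were. Without the block 0 members passed and 0 had an unadjusted p under 0.05, where 68 of the 15150 genes were higher and 320 lower. DESeq2 and limma-voom with the block also called 0, with 2 and 1 members at an unadjusted p under 0.05. Of all genes DESeq2 put 443 higher and 742 lower at that threshold, and limma-voom 406 and 736. The direction was the same in all 4 pairs for 4 members, all higher with the Has2 virus (10.3% of members, against 9.16% of all genes), and for 0 on the lower side (7.96% of all genes).

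These 4 genes act at different steps. Sulf2 (ENSMUSG00000006800) was at 255, 227, 205 and 219 CPM in GFP replicates 1 to 4 and at 292, 280, 251 and 237 CPM in Has2 replicates 1 to 4. The groups overlapped, but each Has2 library was above its own GFP partner, by a log2 difference of 0.11 to 0.30. The fitted log2 change was 0.22 with an SE of 0.09 (95% interval 0.02 to 0.43), at an adjusted p of 0.648 in edgeR. Ust (ENSMUSG00000047712), which puts a 2-O-sulfate on the uronic acid of chondroitin and dermatan sulfate, was at 21.9, 22.4, 16.8 and 18.9 CPM with the GFP virus and at 25.6, 28.2, 20.0 and 20.1 CPM with the Has2 virus. The male Has2 libraries lay within the GFP range and the female ones above it, for a log2 change of 0.22 with an SE of 0.10 (95% interval -0.01 to 0.45), at the same adjusted p in edgeR. Ext1 (ENSMUSG00000061731), a subunit of the heparan sulfate polymerase, was at 236, 247, 193 and 228 CPM and at 256, 275, 233 and 238 CPM in replicates 1 to 4 with the GFP and Has2 viruses. Its groups overlapped as well, and the log2 fold change was 0.15 (SE 0.09; 95% interval -0.05 to 0.35). Hs6st1 (ENSMUSG00000045216), a 6-O-sulfotransferase of heparan sulfate, was at 28.5, 28.7, 26.8 and 32.5 CPM and at 30.1, 30.5, 31.4 and 34.7 CPM, with a log2 fold change of 0.12 (SE 0.09; 95% interval -0.10 to 0.34). GFP replicate 4 was above 3 of the 4 Has2 libraries for this gene. With the trend of GC content and length removed from each library, described further on, Sulf2 and Ust were still higher in all 4 pairs (0.15 and 0.19). Hs6st1 was then at 0.03 and lower in both male pairs, and Ext1 was at 0.31 and lower in both female pairs. After removal Papss2 and Sulf1 were also higher in all 4 pairs (0.25 and 0.15), which they were not as counted. The share of all genes higher in all 4 pairs after removal was not counted.

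**Figure D2:**
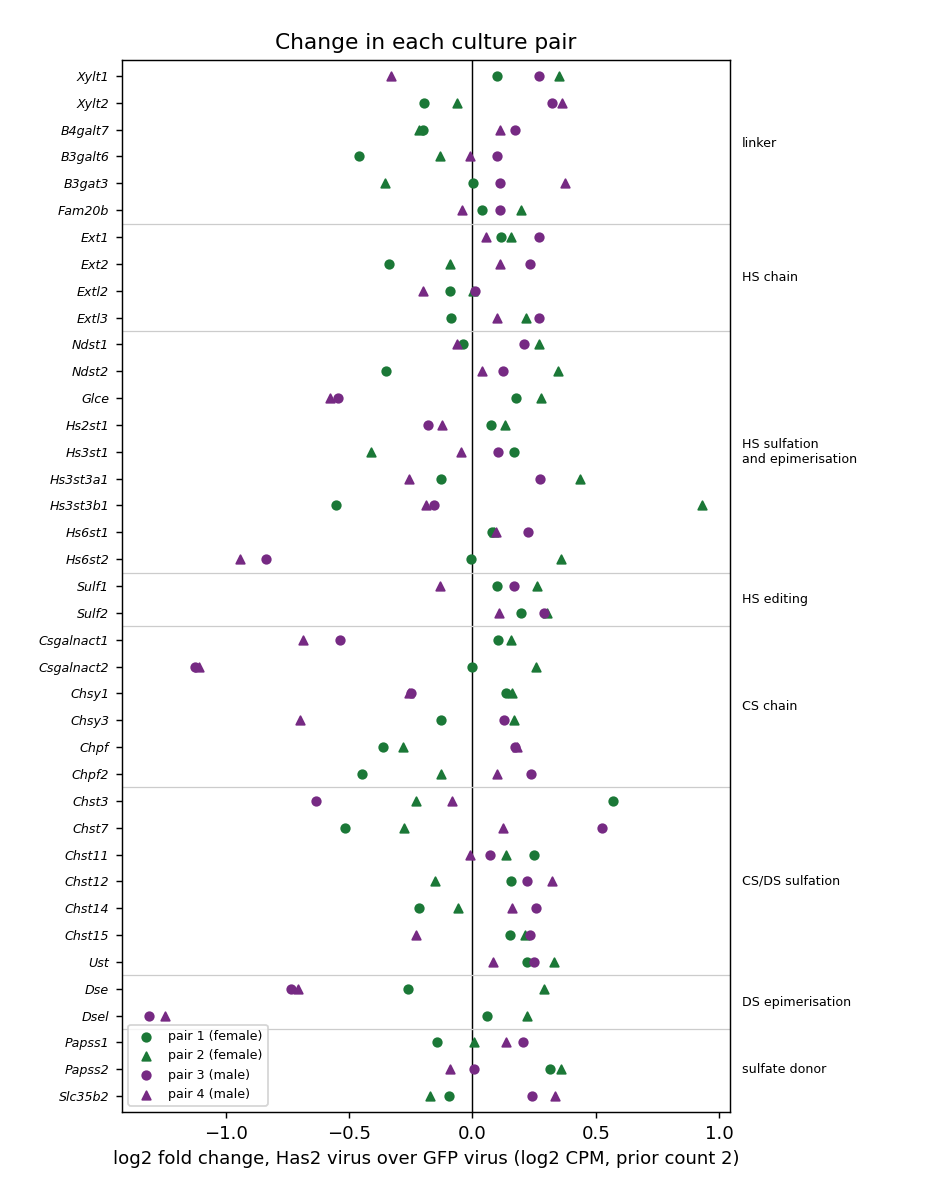
Log2 fold change of each enzyme gene, Has2 over GFP virus, in each of the 4 culture pairs (green, female pairs 1 and 2; purple, male pairs 3 and 4), grouped by enzyme step. The purple points of Dsel, Csgalnact2, Hs6st2, Dse, Csgalnact1 and Glce lie to the left of the green ones, and those of Chst7, Xylt2, Slc35b2 and Chpf to the right.

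The pairs did not move alike, and the split ran between the female and the male cultures. The difference of the log2 fold change, male minus female, was called for 15 of the 39 genes (38.5%, against 29.5% of all genes) in the fit with the replicate block: 7 were higher in males (17.9% of members, against 11.5% of all genes) and 8 lower (20.5%, against 18%). In the male pairs themselves 7 members fell with the Has2 virus (17.9%, against 19.2% of all genes) and 2 rose (5.13%, against 5.68%). In the female pairs 1 member was called, Papss2, which rose (2.56%, against 7.23% in either direction). These calls came from the fit of all 8 libraries. Female pairs fitted alone called 0 members and 732 of 15312 genes, so the call of Papss2 was lost. Male pairs fitted alone called 12 members and 5035 of 15295 genes. Without the block 0 of the 39 differences were called by edgeR, as for all genes. At an unadjusted p under 0.05 there were then 6 members, and 2014 of the 15150 genes tested. Scaling by library totals called 4 members higher and 8 lower, where 1271 and 2887 of 15150 genes were. With replicate 3 left out 0 members were higher and 6 lower (769 and 1889 of 15232 genes). With replicate 4 left out 1 member was higher and 6 lower (499 and 1854 of 15220 genes). Has2 itself had log2 fold changes of 9.30 in female and 7.65 in male pairs, a difference, male minus female, of -1.66. With the trend of GC content and length removed the difference was -0.84 and no longer called (edgeR adjusted p = 0.218). That removal used the GC content and length of the annotated mouse transcript. Whether these hold for reads of the transgene was not examined, so the change of this difference cannot be interpreted. Summed macrophage markers moved with the split too: they went from 2139 to 1978 and from 901 to 842 CPM in the female pairs and from 1591 to 1794 and from 1991 to 2330.4 CPM in the male pairs. Lyz2 made up the largest part of these sums (mean of 995 CPM, against 225 CPM for C1qa, the next), so the sums need not show how each marker moved. The part of these markers in the differences was not tested.

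The dermatan sulfate step stood lowest in the male pairs, and its 2 genes were both called lower in males than in females, as were 18% of all genes. Dsel (ENSMUSG00000038702), which like Dse converts glucuronic to iduronic acid in the chain, was at 34.5, 22.8, 23.4 and 22.9 CPM in GFP replicates 1 to 4 and at 36.0, 26.6, 9.43 and 9.64 CPM in Has2 replicates 1 to 4. Both male Has2 libraries lay far below every other library, and both female ones slightly above their partners. The log2 fold change was 0.14 (SE 0.09) in female and -1.28 (SE 0.10) in male pairs, a difference of -1.42 (SE 0.13; edgeR adjusted p = 5.27e-05). Dse (ENSMUSG00000039497) was at 136, 123, 112 and 110 CPM with the GFP virus and at 113, 150, 67.3 and 67.6 CPM with the Has2 virus. Here too the male Has2 libraries were the lowest of all, while the female pairs went opposite ways, lower in pair 1 and higher in pair 2. Its log2 fold change was 0.01 (SE 0.12) in female and -0.72 (SE 0.12) in male pairs, a difference of -0.73 (SE 0.17; edgeR adjusted p = 0.00782).

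Of the 6 genes that start and extend the chondroitin chain, Csgalnact1, Csgalnact2 and Chsy1 also fell in the male pairs, and Chsy3, Chpf and Chpf2 were not called there. Over all genes 19.2% were called lower in the male pairs. The difference between male and female pairs was called for 5 of the 6, where 29.5% of all genes were. Csgalnact1 (ENSMUSG00000036356), which adds the first N-acetylgalactosamine to the linker, was at 57.4, 81.2, 98.3 and 83.2 CPM with the GFP virus and at 61.7, 90.4, 67.8 and 51.7 CPM with the Has2 virus. The groups overlapped, and replicate 1 was low with both viruses. Within pairs the male cultures were lower and the female ones higher, a difference of -0.74 (SE 0.12; edgeR adjusted p = 0.00106). Chsy1 (ENSMUSG00000032640), the more abundant of the pair of synthases per length, was at 89.8, 78.5, 78.9 and 79.2 CPM and at 98.8, 87.8, 66.5 and 66.3 CPM. Its male Has2 libraries were the lowest of the 8 and the difference was -0.40 (SE 0.11; edgeR adjusted p = 0.0230). Csgalnact2, a second initiator, had the lowest transcript GC content of the list (37.4%) and a difference of -1.25 (SE 0.13; edgeR adjusted p = 8.42e-05), with 20.9 and 23.7 CPM in the male Has2 libraries against 40.9 to 59.6 CPM in the other 6. Chpf and Chpf2 differed in the opposite direction, by 0.50 and 0.45 (edgeR adjusted p = 0.0118 and 0.0315), with log2 fold changes of -0.32 and -0.29 in female and 0.18 and 0.17 in male pairs. Chsy3 differed by -0.28 (SE 0.28) and was not called.

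In the heparan sulfate branch 2 of 9 sulfation and epimerisation genes and 1 of 4 chain genes were called, where 29.5% of all genes were. Hs6st2 (ENSMUSG00000062184), a second 6-O-sulfotransferase, was at 118, 88.9, 85.2 and 101 CPM in GFP replicates 1 to 4 and at 118, 114, 47.6 and 52.8 CPM in Has2 replicates 1 to 4. The 2 male Has2 libraries lay below all others, with log2 fold changes of 0.18 (SE 0.10) in female and -0.89 (SE 0.10) in male pairs. The difference was -1.07 (SE 0.14; edgeR adjusted p = 0.000321), and that of Hs6st1 was 0.08 (SE 0.13). Glce, the epimerase that makes iduronic acid in heparan sulfate, differed by -0.79 (SE 0.12; edgeR adjusted p = 0.000837), with a male log2 fold change of -0.56. The N-deacetylase/N-sulfotransferases Ndst1 and Ndst2, which open sulfation of the chain, differed by -0.04 (SE 0.15) and 0.09 (SE 0.20), and the 2-O-sulfotransferase Hs2st1 by -0.26 (SE 0.12); none of these 3 was called. The 3-O-sulfotransferases Hs3st1, Hs3st3a1 and Hs3st3b1 were not called either, and the last 2 had standard errors of 0.36 and 0.52. Of the 4 chain genes Ext2 was called (0.39, SE 0.13; edgeR adjusted p = 0.0488), and Ext1, Extl2 and Extl3 had differences of 0.03, -0.05 and 0.12. The call of Ext2 was lost in 10 of 14 alternative fits. Sulf1 and Sulf2 differed by -0.16 (SE 0.15) and -0.05 (SE 0.13).

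At the linker 2 of 6 genes were called, both with higher changes in males, as were 11.5% of all genes. Xylt2, which adds the xylose that starts every chain, was at 57.6, 62.3, 52.0 and 44.8 CPM with the GFP virus and at 50.3, 59.7, 65.1 and 57.6 CPM with the Has2 virus. It was lower in both female pairs and higher in both male pairs, a difference of 0.47 (SE 0.12; edgeR adjusted p = 0.0130). The galactosyltransferase B4galt7 differed by 0.35 (SE 0.12; edgeR adjusted p = 0.0463), and its call was lost in 10 of 14 alternative fits. B3galt6 and B3gat3, which add the next galactose and the glucuronic acid, differed by 0.35 (SE 0.16) and 0.42 (SE 0.15) and were not called. Neither were Xylt1 (-0.25, SE 0.20) and the xylose kinase Fam20b (-0.08, SE 0.12). Among chondroitin and dermatan sulfotransferases 1 of 7 was called (29.5% of all genes in either direction), the 6-O-sulfotransferase Chst7 (0.73, SE 0.17; edgeR adjusted p = 0.00902). The other 6 had differences between -0.67 (Chst3, SE 0.58) and 0.35 (Chst14, SE 0.12). Of the 3 sulfate donor genes 2 were called, where 29.5% of all genes were. Papss2, a PAPS synthase, differed by -0.38 (SE 0.12; edgeR adjusted p = 0.0376) and the Golgi PAPS transporter Slc35b2 by 0.42 (SE 0.12; edgeR adjusted p = 0.0206). The second synthase Papss1 had a difference of 0.24 (SE 0.12) and was not called.

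**Figure D3:**
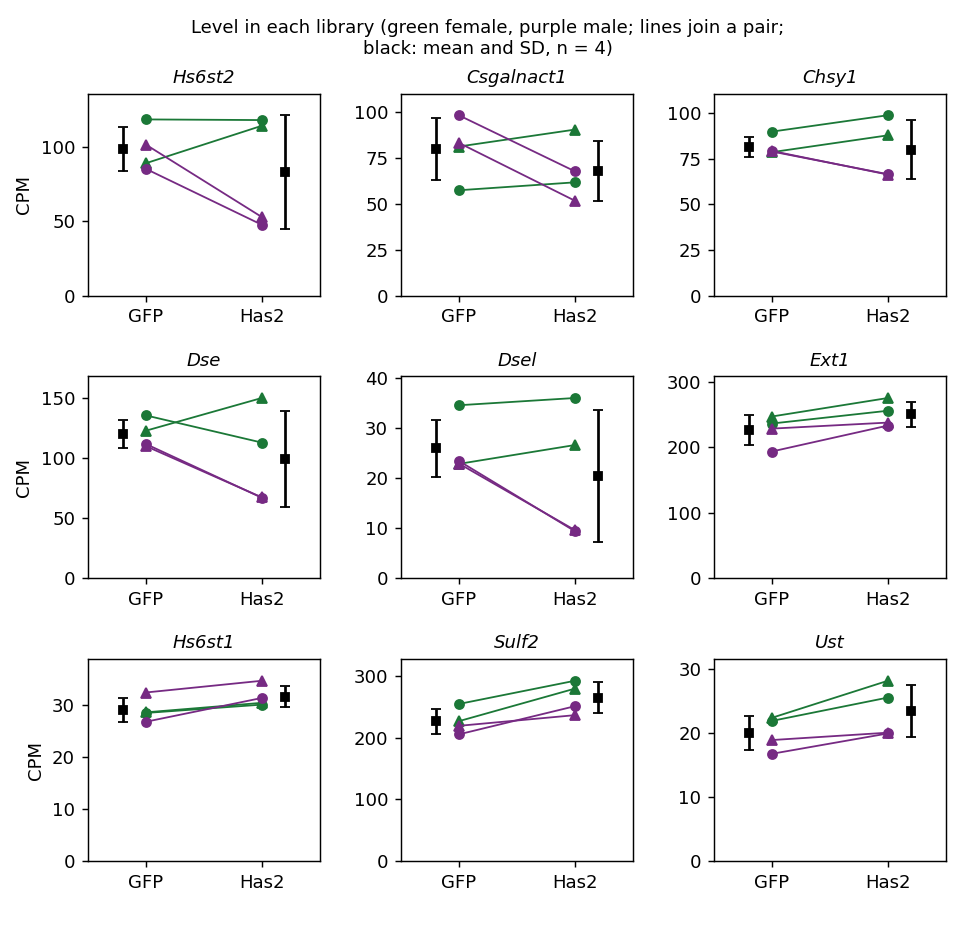
CPM of 9 enzyme genes in each library, with GFP and Has2 virus cultures of a pair joined by a line (green, female; purple, male) and the group mean and SD in black (n = 4). For Hs6st2, Chsy1, Dse and Dsel the 2 purple Has2 points are the lowest of the panel; in the panels of Ext1, Hs6st1, Sulf2 and Ust all 4 lines slope upwards.

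Where a gene fell in the male pairs, its transcript tended to be poor in G and C. Of the 16 members with a transcript GC content under 50%, 7 were called lower in males than in females and 0 higher. Of the 23 members over 50%, 1 was called lower (Chsy1) and 7 higher. Of all genes, whatever their GC content, 18% were called lower in males and 11.5% higher. The shares of all genes under and over 50% were not counted, so these counts cannot be read as a trait of the enzymes. The medians of the members under 50% were 0.13 in female and -0.12 in male pairs, and those of the members over 50% were -0.01 and 0.17. As a description across the 39 genes, Spearman's rho between GC content and log2 fold change was 0.73 in male and -0.52 in female pairs; the genes share the same libraries. Over the 15123 genes with a GC value it was 0.70 and -0.23. For the difference, male minus female, it was 0.75 across the 39 genes and 0.62 over all genes. With transcript length rho was -0.47 in male and 0.58 in female pairs across the 39 genes, and -0.25 and 0.44 over all genes. Both relations were of opposite sign in the 2 preparation series; how the members differ from other genes in them was not tested.

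**Figure D4:**
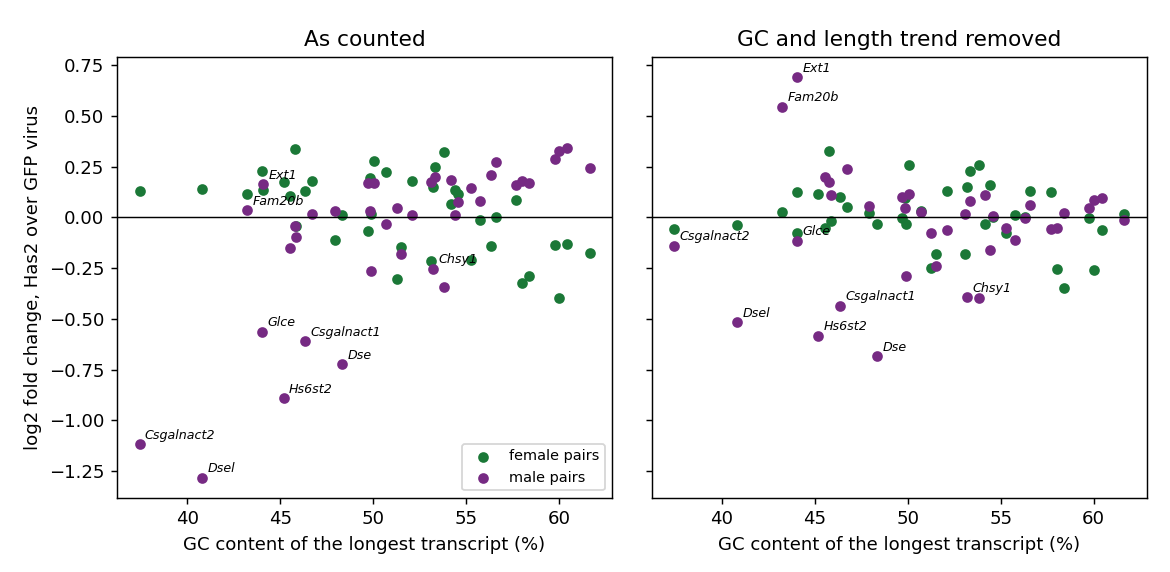
Log2 fold change of the 39 genes in female (green) and male (purple) pairs against the GC content of the longest transcript in percent, as counted (left) and after trend removal in each library (right). On the left Csgalnact2 and Dsel, of lowest GC content, have the lowest male values; on the right Csgalnact2 is near 0 and Ext1 and Fam20b stand highest.

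The trend of GC content and transcript length was next removed from every library, and the same test was run with the replicate block. Of the 39 differences 7 were then called (17.9%, against 10.6% of all genes): 5 lower in males (12.8% of members, against 4.69% of all genes) and 2 higher (5.13%, against 5.93%). The 5 lower genes, Hs6st2, Csgalnact1, Chsy1, Dse and Dsel, had also been called before removal. They make up 12.8% of members, where 4.24% of all genes were called lower in both fits and 2.29% higher, the last with 0 members. After removal their differences were -0.70 (SE 0.12), -0.54 (SE 0.10), -0.54 (SE 0.10), -0.65 (SE 0.15) and -0.48 (SE 0.11), with edgeR adjusted p values of 0.00932, 0.0108, 0.00943, 0.0290 and 0.0268. The difference of Dsel had been -1.42 before removal, and that of Chsy1 -0.40. In these 5 genes the male log2 fold change was -0.39 to -0.68 and the female one -0.04 to 0.15.

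Removal also ended calls and made others. Csgalnact2 went from -1.25 to -0.08 (SE 0.11) and Glce from -0.79 to -0.24 (SE 0.10), and neither was called any longer. The call of Papss2 ended too, as did all 7 on the higher side, Chpf2 with an edgeR adjusted p = 0.0516. In their place stood Ext1, with a difference of 0.77 (SE 0.10; edgeR adjusted p = 0.00340), and Fam20b, with 0.52 (SE 0.10; edgeR adjusted p = 0.0148). Their GC contents are 44.1% and 43.2%, and as counted their differences had been 0.03 and -0.08. With the trend removed Ext1 was at 190, 269, 201 and 202 CPM in GFP replicates 1 to 4 and at 187, 245, 338 and 312 CPM in Has2 replicates 1 to 4, so that the male Has2 libraries were the highest and the female ones lay below their partners. The virus comparison over all 4 pairs still called 0 members after removal. Papss2 then had the smallest unadjusted p of the list, 0.00665 (log2 fold change 0.25). With either male pair left out, 0 members were called in both fits, and with either female pair left out the same 5 genes were; Chpf2 was added without replicate 2. With a male pair left out the differences of the 5 genes after removal were still -0.73 to -0.45, at edgeR adjusted p values of 0.0527 to 0.222, and the genes called after removal went from 1610 to 393 without replicate 3 and 372 without replicate 4. Ext1 after removal was the only member called without each pair in turn (edgeR adjusted p = 0.0465 without replicate 3).

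**Figure D5:**
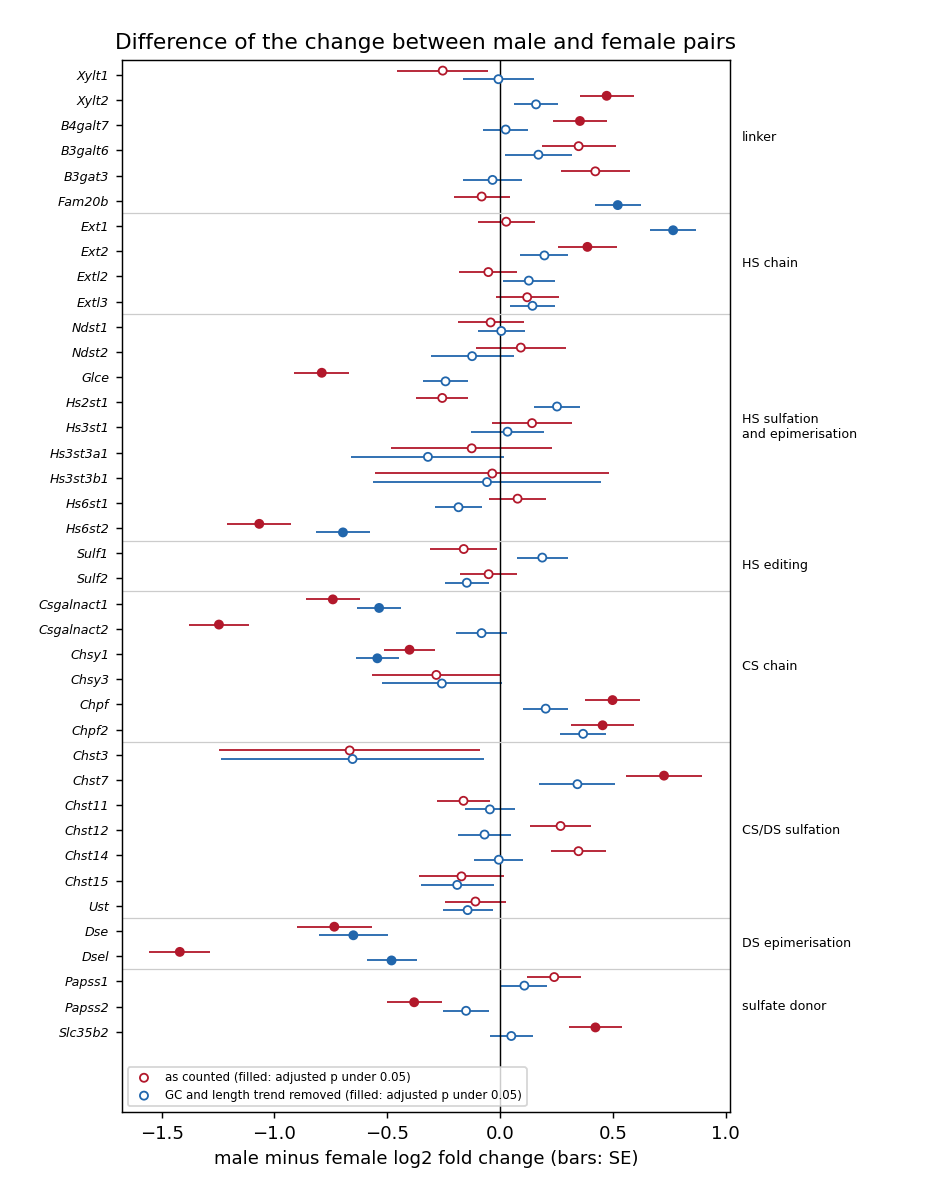
Difference of the log2 fold change, male minus female pairs, for each enzyme gene as counted (red) and after removal of the GC and length trend (blue); bars are standard errors and filled points have an adjusted p under 0.05. Hs6st2, Csgalnact1, Chsy1, Dse and Dsel are filled on the left in both colours, and Ext1 and Fam20b are filled on the right in blue only.

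The upstream sequences of genes that moved together are shown with that of a gene that was higher in every pair. RefSeq promoter windows (250 bases before to 50 after a start site, build GRCm38.p6) were matched by symbol for 32 of the 39 genes, with 40 windows. Chsy1, Dse and Dsel are 3 of the 5 genes lower in males in both fits, and Ust is the comparison. These genes had a single window each. Csgalnact1 had no window, and Hs6st2 had 2, with 0 and 1 GC boxes and 2 and 0 CCAAT boxes, which are not shown. Capitals mark the GC box GGGCGG and the CCAAT box, searched on both strands, with overlapping copies counted separately. Chsy1 is at chr7:66109242-66109541 (+ strand), Dse at chr10:34207186-34207485 (- strand), Dsel at chr1:111864869-111865168 (- strand) and Ust at chr10:8518776-8519075 (- strand).
Chsy1: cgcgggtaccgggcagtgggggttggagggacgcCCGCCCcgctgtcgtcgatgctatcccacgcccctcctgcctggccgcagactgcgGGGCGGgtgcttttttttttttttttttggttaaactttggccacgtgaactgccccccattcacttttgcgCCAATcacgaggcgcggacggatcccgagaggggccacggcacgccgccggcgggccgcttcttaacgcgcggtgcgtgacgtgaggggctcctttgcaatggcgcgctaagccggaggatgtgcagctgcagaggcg
Dse: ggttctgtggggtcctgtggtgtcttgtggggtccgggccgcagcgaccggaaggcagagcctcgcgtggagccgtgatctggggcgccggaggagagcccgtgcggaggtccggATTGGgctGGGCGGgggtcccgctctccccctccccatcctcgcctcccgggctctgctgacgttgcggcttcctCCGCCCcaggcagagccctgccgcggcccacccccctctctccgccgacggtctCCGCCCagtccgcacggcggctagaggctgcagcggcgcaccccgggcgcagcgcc
Dsel: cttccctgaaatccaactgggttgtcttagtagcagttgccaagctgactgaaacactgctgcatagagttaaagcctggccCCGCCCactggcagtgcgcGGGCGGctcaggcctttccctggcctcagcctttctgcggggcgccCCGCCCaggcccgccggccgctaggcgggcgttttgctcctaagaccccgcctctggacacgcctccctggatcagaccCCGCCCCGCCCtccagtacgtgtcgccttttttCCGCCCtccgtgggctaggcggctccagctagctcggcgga
Ust: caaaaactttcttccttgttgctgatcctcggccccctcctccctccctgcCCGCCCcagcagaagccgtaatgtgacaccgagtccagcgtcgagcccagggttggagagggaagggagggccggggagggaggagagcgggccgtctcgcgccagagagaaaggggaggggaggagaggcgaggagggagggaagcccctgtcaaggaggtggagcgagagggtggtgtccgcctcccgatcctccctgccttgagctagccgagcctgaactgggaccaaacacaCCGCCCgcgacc
The windows hold 2, 3, 6 and 2 GC boxes and 1, 1, 0 and 0 CCAAT boxes, in the order shown. A GC box was found in 67.5% of the 40 member windows and in 35.7% of the 32851 windows of the same length from all genes, and a CCAAT box in 42.5% and 37.4%. The Dsel window is 66.0% G and C although its transcript is only 40.8%, and the Chsy1 window is 65.3% against 53.2%. The median GC content was 65.7% for member windows and 52.7% for all windows. All windows came from 27025 genes, more than the 15150 tested, whereas every member passed the filter on low counts. The same values among tested genes only were not computed, so these gaps cannot be read as a trait of the enzymes.

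Other genes of the same pathway were read from 3 further lists. Of 10 remaining synthesis genes 4 were expressed enough to be tested, and 0 were called for the virus over all pairs or for the difference. The smallest p belonged to Extl1, a relative of the heparan sulfate polymerases, which was at 0.274, 0.175, 0.142 and 0.475 CPM with the GFP virus and at 0.880, 1.00, 0.557 and 0.936 CPM with the Has2 virus. The groups did not overlap, and the log2 fold change was 1.70 (SE 0.30; unadjusted p = 0.00088; edgeR adjusted p = 0.595). Within each sex Extl1 was called, at 2.05 in female and 1.34 in male pairs (edgeR adjusted p = 0.0204 and 0.0352). Of all genes 7.23% were called in female pairs in either direction and 5.68% were called higher in male pairs. Extl1 is limited by depth: its mean with the GFP virus was 0.266 CPM, against 0.522 CPM for Chst3. How many of all genes had groups without overlap was not counted. Ndst3, Chst13 and Pxylp1 had log2 fold changes of 0.19, -0.33 and 0.11. Of 7 genes that supply sugar nucleotides and sulfate, 0 were called for the virus and 2 for the difference, both lower in males (18% of all genes were): Impad1, a Golgi phosphatase of the PAP by-product (-1.56; -0.43 after removal of the trend), and the sulfate transporter Slc26a2 (-0.77; -0.09 after removal). Ugdh, which makes the UDP-glucuronic acid shared with hyaluronan, had a log2 fold change of -0.28 (SE 0.08; edgeR adjusted p = 0.648) and Slc35b3, a second PAPS transporter, one of -0.22 (SE 0.11). After removal of the trend these were -0.06 and 0.08, negative in female pairs (-0.43 and -0.27) and positive in male pairs (0.31 and 0.42), and both differences were called (0.75 and 0.69; edgeR adjusted p = 0.0055 and 0.0187). Of 14 lysosomal and extracellular breakdown genes 0 were called for the virus, 2 were called lower in males (Ids, -1.02, and Arsk, -0.81) and 2 higher (Naglu, 0.56, and Hexa, 0.38), which is 14.3% each against 18% and 11.5% of all genes. After removal of the trend 0 of these 14 were called, and 4 of the 7 supply genes were, 3 of them higher in males, where 10.6% of all genes were called in either direction. The lists were not tested against each other.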

How the data were processed

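Poly(A) RNA libraries from 8 fibroblast cultures were prepared with a stranded kit, as the labels' protocols state. The deposited values are the authors' whole-number read counts for each Ensembl gene; reads were checked with FastQC 0.10.1 and counted with HTSeq 0.10.0 on mm39 (GRCm39), per the submitters' processing notes. The aligner, annotation release and strandedness of counting were not given in the sources used here, so reads of close paralogues or overlapping genes may be divided in an unknown way. The table holds no summary lines. Symbols, transcript length and GC content came from GENCODE M21, an older build, by identifier (52081 of 55414 matched; unnamed rows held 0.405% to 0.871% of counts and stayed in the tests).

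The members and lists were chosen with earlier results of these data known. Tests used edgeR 4.0.16 in R 4.3.3 (TMM scaling, default expression filter, quasi-likelihood test, Benjamini-Hochberg over 15150 genes) with the replicate number as a block; the sex by virus interaction was tested in the same way. Same-numbered libraries deviated together from their group means (correlations 0.58, 0.62, 0.53 and 0.44). Libraries of a group differed by more than counting noise (chi-square per degree of freedom 45.4 to 364). Changes per pair are differences of log2 CPM with a prior count of 2. The trend removal fitted splines of GC content and of log2 length (each with 5 degrees of freedom) in every library; 99.8% of genes had both. Alternatives were no block, other scalings and filters, DESeq2 1.42.0, limma-voom 3.58.1, and pairs or libraries left out; those for the 5 genes called in both fits were added after the data were seen. The fits with the replicate block and without trend removal were run on simulated data. The fit with the trend removed was not tested in this way. Named were all 39 genes, and up to 4 genes per further list by smallest p. Every library's value is given for members of one direction in all pairs as counted or called in both fits. Values of every library for Xylt2 and Extl1 were added after they were seen.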

Additional observations from a re-analysis of the deposited data

Results flagged for a closer look

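The effect of the Has2 virus differed between the male and the female pairs for 15 of the 39 genes (38.5%, against 29.5% of all genes). The test was the interaction test of edgeR with the replicate block. On the log2 scale, male minus female, the higher differences were Xylt2 0.47, B4galt7 0.35, Ext2 0.39, Chpf 0.50, Chpf2 0.45, Chst7 0.73 and Slc35b2 0.42. The lower ones were Glce -0.79, Hs6st2 -1.07, Csgalnact1 -0.74, Csgalnact2 -1.25, Chsy1 -0.40, Dse -0.73, Dsel -1.42 and Papss2 -0.38. In these samples sex cannot be told apart from the preparation, and without the block none of the 15 was called.

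In 4 groups of 4 libraries a single library stood apart from the other 3. GFP replicate 1 was at 100.3 CPM for Fam20b (82.1 to 83.8 in the others), at 89.8 CPM for Chsy1 (78.5 to 79.2) and at 34.5 CPM for Dsel (22.8 to 23.4). Has2 replicate 1 was at 60.4 CPM for Papss1 (73.5 to 75.0 in the others). Of the 78 groups examined chance alone would mark about 1 in 20.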

How the results depend on the processing

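With the replicate block 1 gene, Has2, was called for the virus. The count was 0 with library totals as scaling, 118 with no expression filter, 6 with a mean of at least 1 CPM, 61 with DESeq2, 2 with the GC and length trend removed, 732 in female pairs alone, 5035 in male pairs alone and 0 to 1 with a pair or library left out. Members called were 0 in each of these except the male pairs alone. There 12 of 39 members were called, where 5035 of 15295 genes tested were. The calls per sex given above came instead from the fit of all 8 libraries. The difference between male and female pairs was called for 4470 genes and 15 members. These calls depend on the pairing: without the replicate block the counts were 0 genes and 0 members, with the trend removed 1610 and 7 with the block and 0 and 0 without it, and with a pair left out 2353 to 4982 and 6 to 16. Members called in both fits were 5, or 0 to 6 with a pair left out. The block changed no call of a member for the virus. The causes were not tested.

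Signs turned for the following log2 fold changes of the virus, none of them called over all 4 pairs. In female pairs alone they were Xylt2 -0.11, B3gat3 -0.16, Glce 0.24, Hs2st1 0.12, Hs6st2 0.19, Csgalnact1 0.15, Csgalnact2 0.14, Chsy1 0.17, Chsy3 0.035, Chst3 0.32, Chst14 -0.12, Dse 0.029, Dsel 0.15, Papss1 -0.052 and Slc35b2 -0.12. In male pairs alone they were Xylt1 -0.035, B4galt7 0.14, B3galt6 0.041, Ext2 0.17, Hs3st1 0.027, Chpf 0.17, Chpf2 0.16, Chst7 0.32 and Papss2 -0.046. With the trend removed and the block they were Extl2 0.045, Ndst2 -0.046, Glce 0.0067, Hs2st1 0.073 and Hs3st1 0.036. With the trend removed and no replicate block they were B3gat3 -0.0017, Extl2 0.045, Ndst2 -0.067, Glce 0.015, Hs2st1 0.070 and Hs3st1 0.073. With no expression filter they were Ext2 0.0065 and Hs2st1 0.0039, and with Has2 counts left out of the scaling Ext2 0.0064 and Hs2st1 0.0039. With a pair or library left out the ranges were B4galt7 -0.11 to 0.10, B3galt6 -0.24 to 0.031, B3gat3 -0.054 to 0.19, Ext2 -0.10 to 0.12, Extl2 -0.11 to 0.0051, Ndst2 -0.11 to 0.20, Glce -0.31 to 0.045, Hs2st1 -0.11 to 0.062, Hs3st1 -0.12 to 0.19, Hs3st3a1 -0.10 to 0.40, Hs3st3b1 -0.60 to 0.086, Chsy1 -0.13 to 0.049, Chsy3 -0.23 to 0.084, Chpf -0.15 to 0.071, Chpf2 -0.16 to 0.14, Chst3 -0.56 to 0.38, Chst7 -0.22 to 0.16, Chst14 -0.038 to 0.15, Chst15 -0.052 to 0.23 and Slc35b2 -0.048 to 0.24.

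Signs also turned for differences of male minus female pairs, none of them called as counted. With the trend removed and the block they were B3gat3 -0.033, Fam20b 0.52, Extl2 0.13, Ndst1 0.0053, Ndst2 -0.12, Hs2st1 0.25, Hs6st1 -0.18, Sulf1 0.19, Chst12 -0.069 and Chst14 -0.0056. With the trend removed and no replicate block they were B3gat3 -0.026, Fam20b 0.53, Extl2 0.13, Ndst1 0.0091, Ndst2 -0.093, Hs2st1 0.25, Hs3st1 -0.018, Hs3st3b1 0.084, Hs6st1 -0.19, Sulf1 0.19, Chst12 -0.073 and Chst14 -0.0045. Ext1 was -0.022 with library totals and -0.0035 with no filter, and Hs3st3b1 was 0.12 without the block and 0.041 with limma-voom. With a pair left out the ranges were Xylt1 -0.55 to 0.079, Fam20b -0.16 to 0.026, Ext1 -0.075 to 0.16, Extl2 -0.15 to 0.083, Extl3 -0.017 to 0.27, Ndst1 -0.18 to 0.13, Ndst2 -0.25 to 0.43, Hs3st1 -0.14 to 0.46, Hs3st3a1 -0.42 to 0.17, Hs3st3b1 -1.28 to 0.39, Sulf1 -0.31 to 0.021, Sulf2 -0.14 to 0.070, Chsy3 -0.73 to 0.14, Chst15 -0.41 to 0.085 and Ust -0.19 to 0.0044. Depth limits Chst3 and Hs3st3b1, with 7 to 48 and 6 to 67 counts per library; the other 37 members have at least 55 counts in every library.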

Other observations

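Core proteins that carry these chains were read as a further list. Of 20 genes 18 could be tested, and 0 were called for the virus. For the difference between male and female pairs 3 were called lower in males and 1 higher (16.7% and 5.56%, against 18% and 11.5% of all genes). Vcan, the large chondroitin sulfate proteoglycan versican, had log2 fold changes of 0.37 in female and -0.50 in male pairs (edgeR adjusted p = 0.0019 for the difference), and Dcn, decorin, 0.20 and -0.54 (edgeR adjusted p = 0.0020). Srgn, the core protein serglycin of blood cells, stood at -0.08 and -0.58, and the heparan sulfate carrier Sdc1, syndecan-1, at -0.14 and 0.23 (edgeR adjusted p = 0.0331 and 0.0456). With the trend of GC content and length removed none of these 4 was called, and the differences of Vcan and Dcn were -0.01 and 0.37. Sdc2, syndecan-2, was then called, with a difference of 0.41 (edgeR adjusted p = 0.0293).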
